A study of Mus musculus with 5 samples.

Results

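The genes Parp9, Dtx3l, Parp14 and Parp12 were examined in mouse bone marrow mesenchymal stem cells (MSC), the stroma that nurtures blood progenitors and dampens T cell responses. They are the genes found when every probe set with the single gene symbol Dtx3l, or Parp followed by a number, was taken from the deposited table: 6 of 3373 probe sets, and 4 of 2190 named genes. MSC in primary culture were exposed for 48 h to T cells activated with antibodies to CD3 and CD28, at a ratio of 10 T cells to 1 MSC, across a transwell membrane that lets soluble products pass (2 arrays), and were compared with MSC cultured alone (3 arrays). Each array is labelled as a biological repetition; strain and age are not named in the labels, and neither is any genetic change.

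ADP-ribosyltransferases of the PARP family transfer ADP-ribose from NAD to proteins and nucleic acids. Parp9 and Parp14 carry macrodomains, which bind ADP-ribose, and Parp14, first described in the mouse as a coactivator of Stat6, adds single ADP-ribose units to its targets. Dtx3l is a ubiquitin ligase of the Deltex family that forms a complex with Parp9; in human cells the complex acts at damaged DNA and in interferon signalling. Parp12 is a zinc finger member of the family that interferon induces. Zc3hav1, also called PARP13 or ZAP, lacks catalytic activity in humans and binds viral RNA.

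Parp14, Dtx3l and Parp9 lie side by side on mouse chromosome 16 (GRCm38.p6). Parp14 is annotated at chr16:35831892-35871518, Dtx3l at chr16:35926515-35939027 and Parp9 at chr16:35938470-35972621. The gene models of Dtx3l and Parp9 overlap by 558 bases, and in humans the pair is known to share an interferon-responsive promoter. Parp12 lies elsewhere, at chr6:39086412-39118349, and Zc3hav1 is on the same chromosome at chr6:38305286-38355352. Probe positions were not analysed here.

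RefSeq promoter sequences of build GRCm38.p6 were found for Dtx3l, Parp12 and Zc3hav1. The 250 bases before each start are shown because Dtx3l and Parp12 moved together in these arrays and Zc3hav1 moved less. All 3 are on the minus strand and are printed 5′ to 3′ towards the start, with CG dinucleotides in capitals. The Zc3hav1 window lies inside the Zc3hav1 gene model given above, so it precedes a start within that model. The Dtx3l window lies inside the Parp9 gene model.
Dtx3l, chr16:35939028-35939277: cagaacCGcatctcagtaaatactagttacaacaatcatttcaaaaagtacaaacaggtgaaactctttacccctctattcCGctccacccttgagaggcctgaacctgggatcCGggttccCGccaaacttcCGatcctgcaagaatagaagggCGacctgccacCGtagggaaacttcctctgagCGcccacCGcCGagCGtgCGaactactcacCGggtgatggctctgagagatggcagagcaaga
Parp12, chr6:39118350-39118599: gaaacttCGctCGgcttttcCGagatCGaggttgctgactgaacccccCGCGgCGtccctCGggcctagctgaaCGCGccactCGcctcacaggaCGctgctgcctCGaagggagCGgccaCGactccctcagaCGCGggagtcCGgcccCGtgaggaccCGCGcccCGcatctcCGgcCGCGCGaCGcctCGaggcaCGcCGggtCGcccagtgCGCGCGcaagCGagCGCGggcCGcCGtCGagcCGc
Zc3hav1, chr6:38354604-38354853: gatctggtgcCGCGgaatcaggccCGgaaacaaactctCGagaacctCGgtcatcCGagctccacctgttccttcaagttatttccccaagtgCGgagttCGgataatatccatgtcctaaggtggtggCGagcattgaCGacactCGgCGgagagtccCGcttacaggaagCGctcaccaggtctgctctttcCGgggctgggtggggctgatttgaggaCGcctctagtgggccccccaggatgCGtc
The Dtx3l window held 13 CG dinucleotides and 52.8% G and C, the Parp12 window 41 and 73.6%, and the Zc3hav1 window 17 and 58.8%. The medians over the 32851 mouse promoters of the table were 6 and 52.4%. The Parp12 window had more CG dinucleotides than 98.9% of these promoters, and the Dtx3l window more than 68.5%. A search for the interferon-stimulated response element core (GAAA, any 2 bases, then GAAA) on both strands and for the gamma-activated site TTCNNNGAA, which reads the same on both strands, gave 0 matches in the 3 windows. Of all promoters of that length, 2.98% held the first motif and 7.02% the second, and the absence of these letters says nothing about binding elsewhere.

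The table does not cover a whole array. In all 3373 probe sets the co-culture arrays fell on one side of those of MSC alone with a gap of at least 0.34 on the log2 scale, so the table is treated as selected on the comparison made here; no source used here states how its rows were chosen. In limma all 3373 probe sets (100%) passed an adjusted p of 0.05, of which 1642 (48.7%) were higher and 1731 (51.3%) lower in co-cultured MSC. A call or a lack of overlap in this table is therefore no result about a single gene, and errors may be too small and differences too large. The median of all differences was -0.58 on the log2 scale. Genes were sought among the 3013 probe sets with a single gene symbol. A gene counted as absent from the table may therefore still lie in its remaining rows, which were not searched. Of 12 Parp genes with a number in the RefSeq table, 3 were found in the deposited table. None of the 10 listed members of the family outside the interferon-inducible ones (Parp1, Parp2, Parp3, Parp4, Parp6, Parp8, Parp16, Tnks, Tnks2 and Tiparp) was there, so the comparison with them was not made. Of 6 listed interferon-inducible members 4 were measured, Parp9, Parp12, Parp14 and Zc3hav1, while Parp10 and Parp11 were not analysed. Zc3hav1, the relative set beside the 4 genes, is thus itself listed as interferon-inducible.

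**Figure D1:**
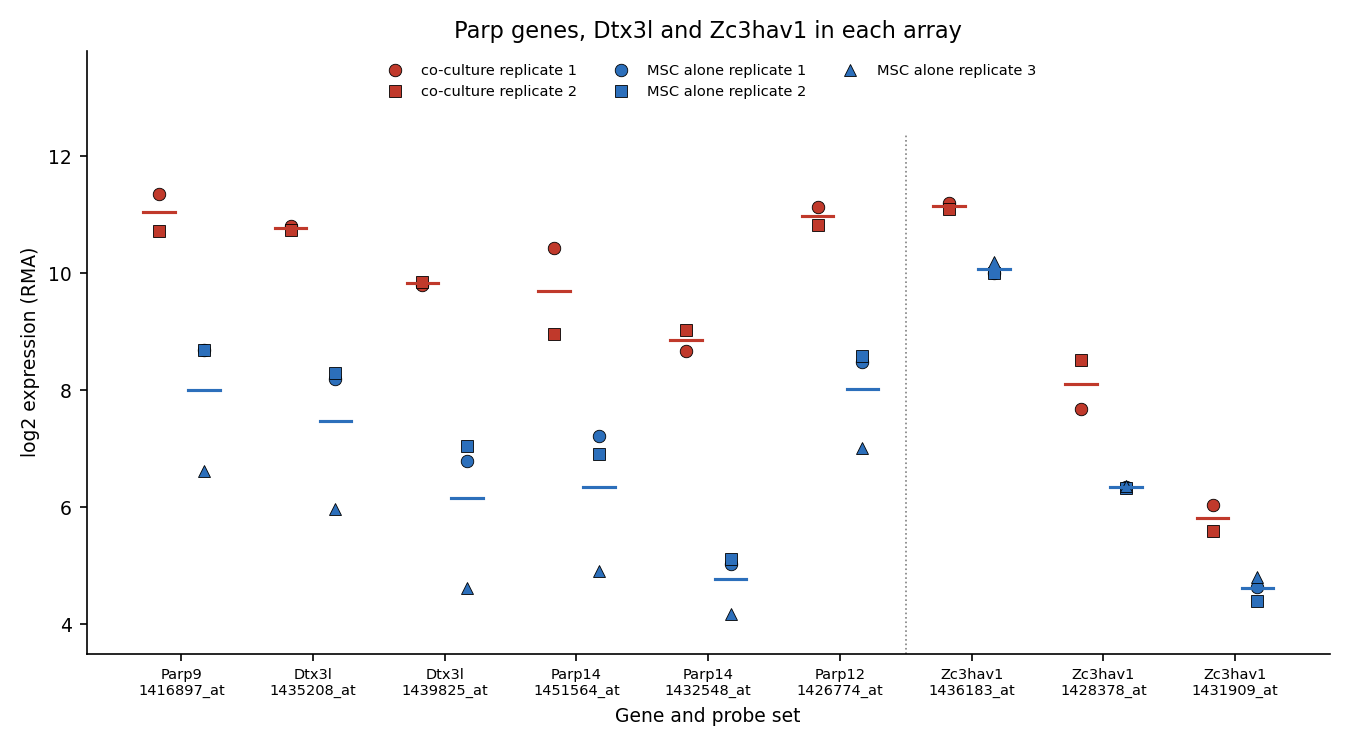
Log2 expression (vertical axis) of each probe set (horizontal axis) in the 2 co-culture arrays (red, left) and the 3 arrays of MSC alone (blue, right); short lines are group means and the dotted line separates Zc3hav1. In Parp9, Dtx3l, Parp14 and Parp12 the triangle of MSC alone replicate 3 lies below the other replicates, and in Zc3hav1 it does not.

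Parp9, Dtx3l, Parp14 and Parp12 were 7.72-fold to 16.9-fold higher after co-culture than in MSC grown alone. All 6 probe sets were called higher in limma, against 48.7% of the table, and their median difference was 3.32 on the log2 scale, against 1.07 for all higher probe sets. They ranked between 32 and 94 among the 1642 higher probe sets. The gap between the lowest co-culture array and the highest array of MSC alone was between 1.75 and 3.55. In bulk RNA, a change in the number of cells that express a gene and a change in RNA per cell cannot be told apart.

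Parp9 (probe set 1416897_at), the macrodomain partner of Dtx3l, had log2 values of 11.36 and 10.72 in the co-culture arrays, against 8.68, 8.69 and 6.62 in replicates 1, 2 and 3 of MSC alone. Both co-culture arrays lay above every array of MSC alone, and replicate 3 of MSC alone stood about as far below its fellow controls as they stood below co-culture replicate 2. The means were 11.04 ± 0.45 (SD, n = 2) in co-culture and 7.996 ± 1.20 (SD, n = 3) in MSC alone. The log2 difference for Parp9 was 3.04 ± 0.66 (SE), an 8.24-fold rise, with an adjusted p of 0.00682 in limma. Without replicate 3 of MSC alone the rise was 5.11-fold.

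Dtx3l, the ubiquitin ligase, was measured by 2 probe sets. The brighter one (1435208_at) read 10.81 and 10.74 in co-culture, against 8.19, 8.29 and 5.96 in MSC alone. The dimmer one (1439825_at) read 9.80 and 9.85 in co-culture, against 6.79, 7.05 and 4.63 in MSC alone. In both the co-culture arrays were nearly equal, and replicate 3 of MSC alone was the low array. The rise was 3.29 ± 0.70 (SE) in the brighter probe set, or 9.78-fold (adjusted p 0.00659 in limma), and 12.8-fold in the dimmer one (adjusted p 0.00566 in limma). Without replicate 3 of MSC alone these were 5.78-fold and 7.52-fold.

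Parp14, the largest responder by its dimmer probe set, gave a less even picture. Its brighter probe set (1451564_at) read 10.43 and 8.96 in co-culture replicates 1 and 2, against 7.21, 6.92 and 4.90 in MSC alone. The dimmer one (1432548_at) read 8.68 and 9.03 in co-culture, against 5.03, 5.12 and 4.17 in MSC alone. The probe sets thus disagreed on the order of the co-culture arrays: replicate 1 minus replicate 2 was 1.47 in the first and -0.36 in the second. The rise was 3.35 ± 0.78 (SE) in the brighter probe set, or 10.2-fold (adjusted p 0.00775 in limma), and 4.08 ± 0.33 in the dimmer one, or 16.9-fold (adjusted p 0.000885 in limma).

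For the brighter Parp14 probe set the size of the rise rested on single arrays, and the call on how the spread was modelled. Its rise was 6.18-fold without replicate 3 of MSC alone, 6.13-fold without co-culture replicate 1 and 16.9-fold without co-culture replicate 2. In limma's linear model without moderation of the spread its adjusted p was 0.0543, above the threshold; setting aside the stricter adjustment described next, the lowest over the alternatives was 0.0011 and this the highest. The dimmer probe set had a rise between 3.78 and 4.26 on the log2 scale with any array left out, but its MSC-alone values near 5 and below are low, and without a detection call the fold is uncertain.

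Parp12, the zinc finger member, had log2 values of 11.13 and 10.82 in co-culture, against 8.49, 8.59 and 7.01 in MSC alone (1426774_at). It rose by 2.95 ± 0.49 (SE), or 7.72-fold (adjusted p 0.00437 in limma). Replicate 3 of MSC alone was again lowest, by a smaller margin than in Parp9 and Dtx3l.

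**Figure D2:**
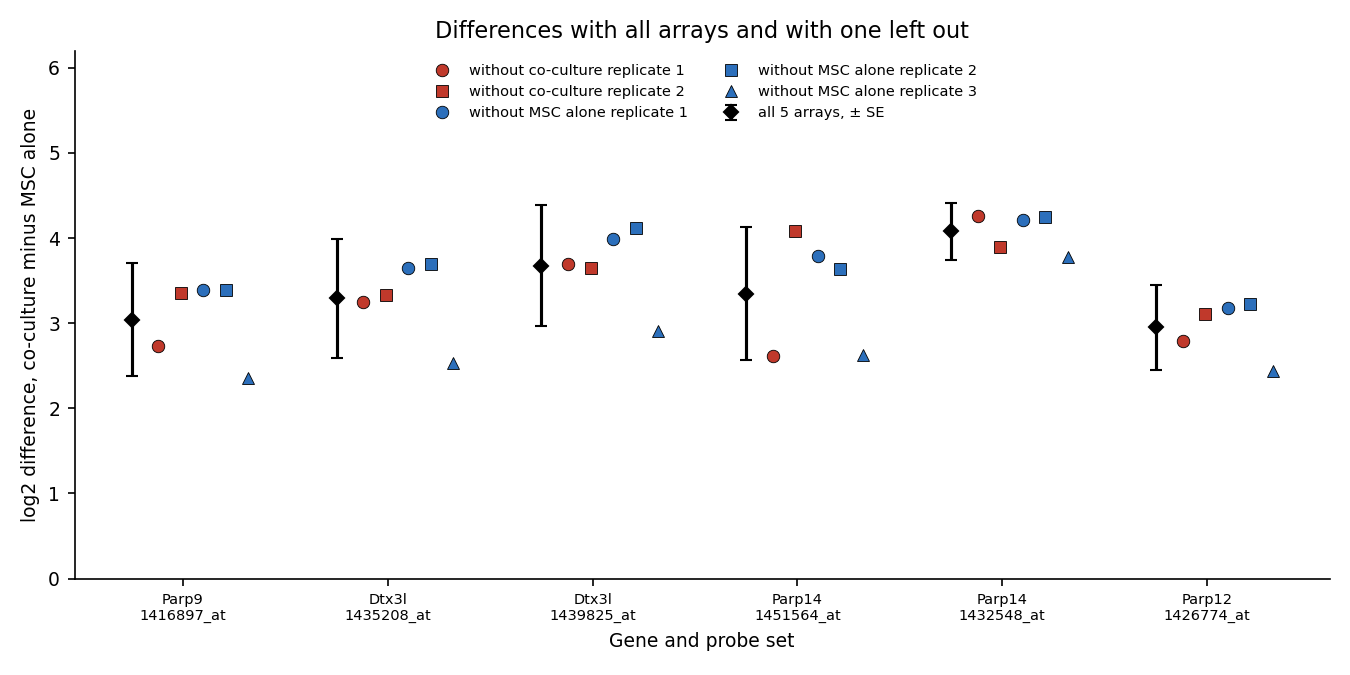
Log2 difference of co-culture minus MSC alone (vertical axis) for each probe set (horizontal axis), from all 5 arrays (black diamonds, ± limma SE) and with 1 array left out (red, a co-culture array; blue, an array of MSC alone). Leaving out replicate 3 of MSC alone gives the lowest or nearly the lowest value in every probe set, 2.35 for Parp9, and the Parp14 probe set 1451564_at spans 2.62 to 4.08.

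In a stricter adjustment that assumed 15 tests for each one made, 1 of the 6 probe sets was called higher, Parp14 by 1432548_at (adjusted p 0.0133 in limma), against 6.08% of the table. The other members had adjusted p-values between 0.0655 and 0.116 under that adjustment. The SD over MSC alone was 0.52 for that Parp14 probe set and between 0.88 and 1.33 for the others.

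The spread within MSC alone was a shared property of the 4 genes. Replicates 1 and 2 differed by at most 0.30 in any of the 6 probe sets. Replicate 3 departed from the mean of replicates 1 and 2 by -2.07 in Parp9, by -2.28 and -2.29 in Dtx3l, by -2.16 and -0.90 in Parp14 and by -1.53 in Parp12. Over the whole table the median departure was -0.02, and 5% to 95% of probe sets lay between -0.78 and 0.74. A departure below -1.5 was found in 33 probe sets (0.978%), 27 of them higher in co-culture, against 48.7% higher in the table. Of these 33, 5 were members, and Parp12 passed that cut-off only narrowly. The medians of the arrays over the table differed little, at 7.50 and 7.42 in co-culture and 7.64, 7.63 and 7.61 in MSC alone. Every fold that includes replicate 3 is therefore larger than one taken against replicates 1 and 2, for these genes.

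**Figure D3:**
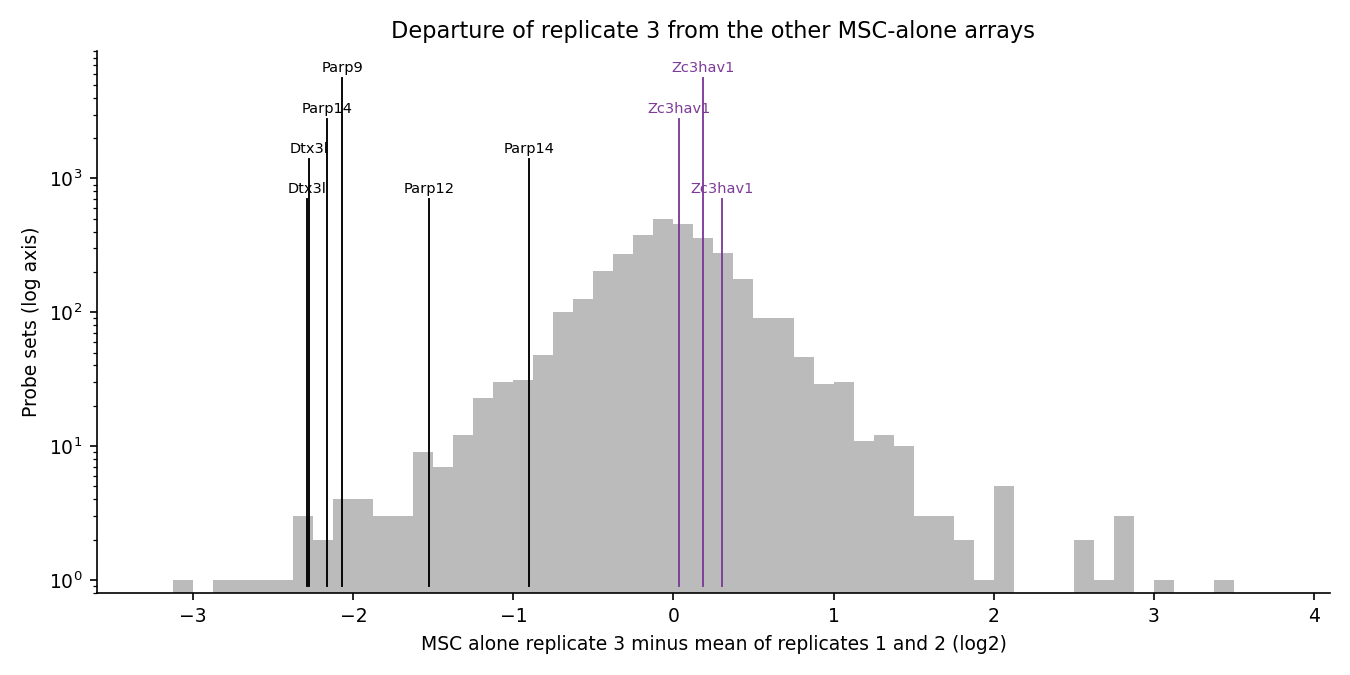
Number of probe sets (vertical log axis) by the log2 departure of MSC alone replicate 3 from the mean of replicates 1 and 2 (horizontal axis), over all 3373 probe sets; lines mark the members (black) and Zc3hav1 (purple). The members lie between -2.29 and -0.90, and the Zc3hav1 probe sets between 0.035 and 0.30.

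Zc3hav1, the antiviral relative, was also higher in co-culture but without a low replicate 3 in MSC alone. Its brightest probe set (1436183_at) read 11.20 and 11.09 in co-culture, against 10.01, 10.00 and 10.19 in MSC alone. It rose by 1.08 ± 0.17 (SE), or 2.11-fold (adjusted p 0.00400 in limma). The other probe sets rose by 1.75 ± 0.27 (1428378_at) and 1.21 ± 0.23 (1431909_at). In none of the 3 did replicate 3 of MSC alone lie below the mean of its fellows.

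The responses of the 4 genes and Zc3hav1 were compared within arrays, as the log2 value of one gene minus that of another, over 10 pairs. With 2 against 3 arrays there are 10 splits and the smallest exact two-sided permutation p is 0.2, so no pair could pass the threshold. Dtx3l exceeded Parp9 by 0.25 (95% interval -0.48 to 0.98; exact permutation p = 0.6, adjusted over the pairs 0.75). Parp14 exceeded Parp9 by 0.31 (interval -0.76 to 1.37) and Dtx3l by 0.06 (interval -1.67 to 1.79). Over Parp12 the excess was 0.40 for Parp14 (interval -1.29 to 2.09), 0.34 for Dtx3l (interval -0.72 to 1.41) and 0.09 for Parp9 (interval -0.75 to 0.93). The exact permutation p was between 0.6 and 1 for these 6 pairs, each gene by its brightest probe set. The dimmer probe sets gave other sizes. With the dimmer Parp14 probe set its excess was 1.04 over Parp9, 1.13 over Parp12 and 0.79 over Dtx3l, or 0.40 over the dimmer Dtx3l probe set. With the dimmer Dtx3l probe set the excess of Dtx3l was 0.63 over Parp9 and 0.73 over Parp12, and that of the brighter Parp14 probe set over it was -0.33. Of these, Parp14 over Parp12 and Dtx3l over Parp9 and over Parp12 reached the smallest possible exact permutation p of 0.2. The order of the 4 responses therefore depended on the probe set, and the arrays were too few to test it.

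Against Zc3hav1 the 4 genes had larger differences, in both co-culture arrays. Parp14 exceeded it by 2.27 (interval -1.34 to 5.88), Dtx3l by 2.21 (interval -1.16 to 5.58), Parp9 by 1.97 (interval -1.18 to 5.11) and Parp12 by 1.87 (interval -0.49 to 4.23). With the brightest Zc3hav1 probe set each pair had the smallest possible exact permutation p of 0.2, or 0.5 adjusted over the 10 pairs. Against its probe set 1428378_at the excess was 1.60 for Parp14 and 1.29 for Parp9, with an exact permutation p of 0.6 for each, and 1.54 for Dtx3l and 1.20 for Parp12, with a p of 0.2 for each. Replicate 3 of MSC alone was low in one gene of each pair, and without it the excess was 1.49, 1.39, 1.21 and 1.30 for Parp14, Dtx3l, Parp9 and Parp12. Between Parp9 and Dtx3l the within-array difference, relative to its mean in MSC alone, was 0.02, 0.11 and -0.14 in the 3 arrays of MSC alone, so these neighbours dropped in replicate 3 by nearly the same amount.

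**Figure D4:**
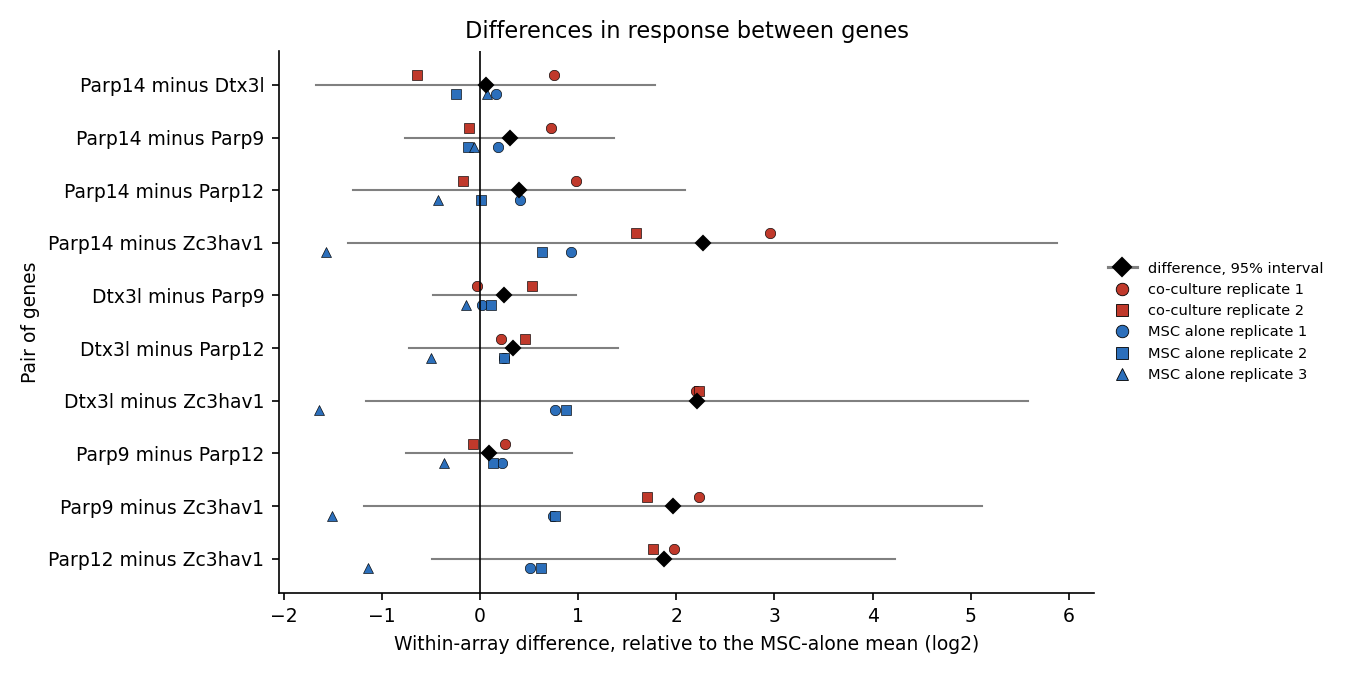
Difference in log2 response between 2 genes in the same array (horizontal axis, relative to the mean in MSC alone) for 10 pairs (vertical axis); red points are co-culture arrays, blue points MSC alone, black diamonds the difference between groups and grey lines its 95% interval. Genes are shown by their brightest probe sets. All 10 intervals include 0, and in the 4 pairs with Zc3hav1 both red points lie to the right of every blue point.

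Among all named genes, those with profiles most like the members were sought by the mean absolute difference between 5-array profiles, each centred on its own mean. Parp9 was closest to Ifit1, an antiviral tetratricopeptide repeat gene, at 0.128, then to Erap1, an aminopeptidase that trims peptides for class I molecules, at 0.177, then to Dtx3l at 0.178. Dtx3l was closest to Rtp4, an interferon-inducible receptor transporter gene, at 0.139, then to Xaf1, a pro-apoptotic gene, at 0.142, and then to Parp9. Parp14 was closest to Ifit1 at 0.178, Parp9 at 0.266 and the chemokine gene Ccl7 at 0.302. Since every probe set of the table separates the groups, the likeness reflects the size of the rise and the order within each group over 5 arrays.

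The drop in replicate 3 of MSC alone was seen in these nearest genes too. Ifit1 read 11.04 and 9.98 in co-culture, against 8.24, 8.13 and 6.21 in MSC alone. Rtp4 read 12.62 and 12.42 in co-culture, against 9.77, 10.21 and 7.43 in MSC alone. Like the brighter Parp14 probe set, by which it was chosen, Ifit1 was higher in co-culture replicate 1 than in replicate 2, by 1.06.

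The protein-coding genes within 500 kb of the Parp14 to Parp9 cluster were 21, of which 2 were in the table, and these went opposite ways. Kpna1, which encodes an importin alpha of the nuclear import machinery, lies next to Parp9 at chr16:35983288-36037136. Its brightest probe set (1460260_s_at, which can bind related transcripts) read 9.16 and 9.04 in co-culture, against 8.54, 8.59 and 8.48 in MSC alone, a rise of 0.56 ± 0.17 (SE; adjusted p 0.0150 in limma). Its other probe sets rose by 0.67 (1419548_at) to 1.36 (1449504_at). Fam162a, a hypoxia-inducible gene of a mitochondrial protein at chr16:36043844-36071561, read 10.68 and 10.55 in co-culture, against 13.21, 13.21 and 12.85 in MSC alone, and fell by 2.47 on the log2 scale (adjusted p 0.000841 in limma). Neither neighbour had a drop in replicate 3 of the size seen in the members.

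Of 16 listed interferon receptor and JAK-STAT genes 6 were in the table, and all 6 were called higher, against 48.7% of the table; the other 10 were not analysed here. Their median difference was 1.46 on the log2 scale. Stat2 and Irf9, transcription factors of the type I interferon response, rose by 2.62 ± 0.17 and 2.19 ± 0.21 (SE). The receptor subunit gene Ifnar2 and the kinase genes Jak2 and Jak1 rose by 1.47 ± 0.24, 1.45 ± 0.26 and 1.10 ± 0.27, and Stat3 rose by 0.71 ± 0.16. Stat2 (1450403_at) read 9.05 and 8.95 in co-culture, against 6.35, 6.46 and 6.33 in MSC alone. Replicate 3 departed by -0.08 in that probe set and by -0.38 in Irf9, well short of the departures of the members.

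Genes that supply or spend NAD, the substrate of PARP enzymes, were mostly outside the table: 3 of 24 were measured, 2 called higher and 1 lower, against 48.7% higher and 51.3% lower in the table. Nampt, the rate-limiting enzyme of NAD salvage from nicotinamide, read 11.18 and 11.62 in co-culture, against 9.76, 10.47 and 9.98 in MSC alone, a rise of 1.34 ± 0.27 (SE; adjusted p 0.00612 in limma). Sirt1, an NAD-dependent deacetylase, rose by 1.24 ± 0.27. Nmrk1, a kinase that makes NAD precursor from nicotinamide riboside, read 5.36 and 4.74 in co-culture, against 6.63, 6.49 and 7.63 in MSC alone, and fell by 1.87 on the log2 scale (adjusted p 0.00647 in limma).

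Of 14 listed genes for the removal of ADP-ribose 1 was in the table, Nudt5, a hydrolase of free ADP-ribose, which fell by 0.85 on the log2 scale (6.28 and 5.66 in co-culture, against 6.88, 6.72 and 6.86 in MSC alone). The lower calls of the table made up 51.3%. Of 13 macrodomain proteins and other ADP-ribose readers 0 were found among the probe sets with a single gene symbol. Of 10 genes of ubiquitin signalling at damaged DNA 1 was there, Brca1, which fell by 1.22 (5.46 and 4.93 in co-culture, against 6.46, 6.49 and 6.32 in MSC alone). Of the 5 Deltex genes Dtx3l was the one in the table.

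**Figure D5:**
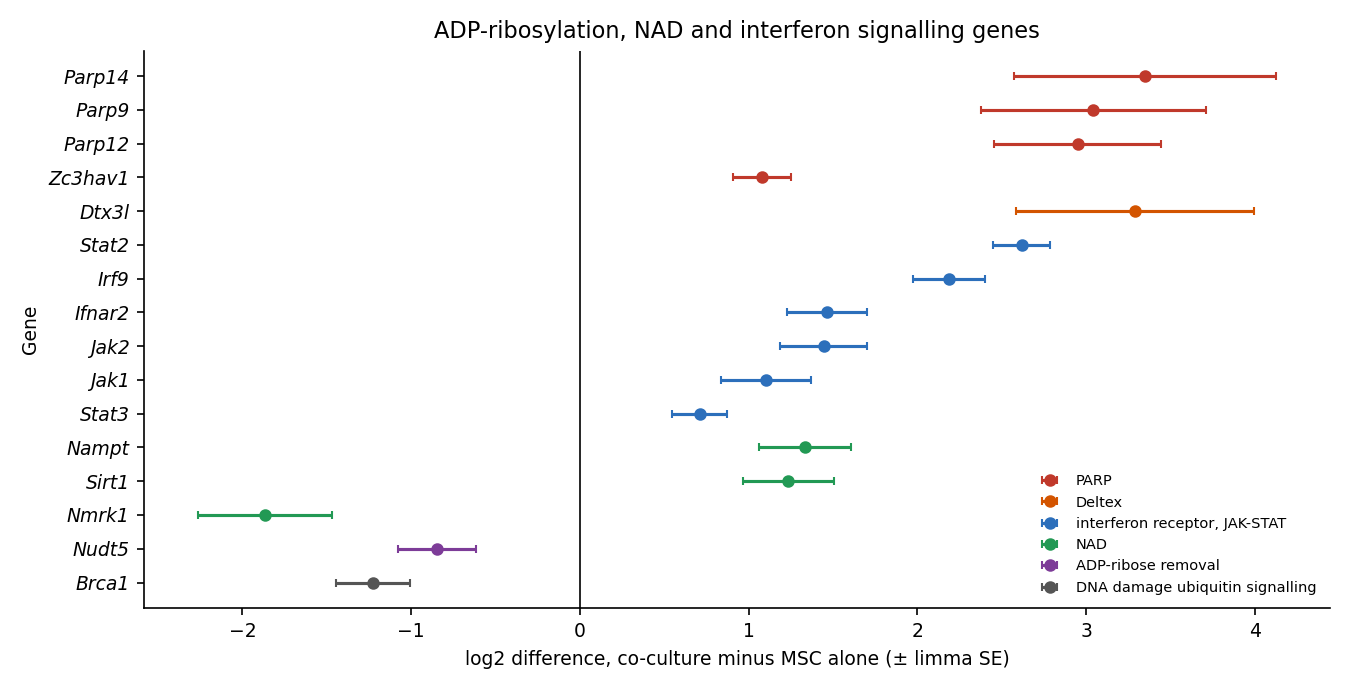
Log2 difference of co-culture minus MSC alone (horizontal axis, ± limma SE, n = 2 and n = 3 arrays) for the measured genes of the PARP, Deltex, interferon signalling, NAD, ADP-ribose removal and DNA damage lists (vertical axis; cell type markers are left out), each by its brightest probe set. With all 5 arrays the 4 members lie between 2.95 and 3.35, above every other gene shown, while Nmrk1, Nudt5 and Brca1 lie below 0. Without replicate 3 of MSC alone the members run from 2.35 (Parp9) to 2.63 (Parp14). Stat2, at 2.62 with all arrays, departed by only -0.08 in that replicate, so the order of the members against Stat2 depends on it.

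Markers of the cultured cells and of other cell types were checked as far as the table holds them. Of 12 MSC markers 6 were present: Pdgfra and Vcam1 were higher in co-culture, and Pdgfrb, Cxcl12, Col1a1 and Cd44 were lower. Pdgfra, like the members, was low in replicate 3 of MSC alone, with 10.77 and 11.39 in co-culture, against 7.60, 8.40 and 5.93 in MSC alone. The other measured MSC markers did not share that drop. Replicate 3 departed from the mean of replicates 1 and 2 by 1.72 in Cxcl12. In the rest the departure lay between -0.29 (Vcam1) and 0.60 (Pdgfrb, 1436970_a_at). Of 16 T cell markers 0 were found among the probe sets with a single gene symbol, and of 21 macrophage and monocyte markers 2 were, Mpeg1 and Ctss. Mpeg1 read 9.44 and 8.81 in co-culture, against 4.40, 4.82 and 4.71 in MSC alone, and Ctss read 6.62 and 5.89 in co-culture, against 3.08, 3.65 and 3.35 in MSC alone. These values move with the members between the groups but not in replicate 3 of MSC alone, and their part in the result was not tested.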

How the data were processed

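Total RNA of 5 cultures was labelled with biotin and hybridised to Affymetrix arrays, per the labels' protocols. Per the submitters' processing notes, the authors used RMA (no version named), and the deposited numbers are log2 values per probe set. RMA corrects background, quantile-normalises the arrays and summarises probes; it gives no detection call. Gene symbols came from the platform annotation and 3010 of the 3013 single symbols matched a RefSeq gene of GRCm38.p6 by Entrez identifier, with 0 symbols changed.

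The comparison was fitted with limma 3.58.1 under R 4.3.3 (lmFit and eBayes) on all 3373 probe sets and 5 arrays, without covariates or filter, two-sided, with Benjamini-Hochberg adjustment over the whole table and a threshold of 0.05. The fit was tested on simulated data without selection of probe sets, so that test does not bear on p-values in a selected table. Where a gene had several probe sets, the brightest on average stood for it. Differences in response between genes were tested with exact two-sided permutation over the arrays. The alternatives were array centring, repeated quantile normalization, a filter on dim probe sets, no moderation, an intensity trend, a stricter adjustment, the replicate number as a block and each array left out. Named were all member probe sets, the 3 genes most like Parp9, Dtx3l and Parp14, measured genes of the pathway lists and neighbours within 500 kb; exceptions are stated. The members and lists were chosen with earlier results of these data known.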

Additional observations from a re-analysis of the deposited data

How the results depend on the processing

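All 6 probe sets of Parp9, Dtx3l, Parp14 and Parp12 were higher in co-culture under each of the 12 alternatives run, and 6 were called in each of them except 2. Without moderation 5 were called, against 3281 of the 3373 probe sets of the table, and in the stricter adjustment that assumed 15 tests for each one made 1 was, against 415 of the whole table. Centring each array on its median and repeated quantile normalization moved the median of all differences by 0.16 and 0.23 on the log2 scale. With the replicate number as a block 3365 probe sets of the table and 6 members were called; replicate 3 of MSC alone has no partner there, so the Parp9 difference of 2.35 equals that without it. Nothing in the labels pairs same-numbered arrays. Their deviations from the group means correlated at 0.22 (replicate 1) and 0.32 (replicate 2) across probe sets. The deviations of 2 co-culture arrays mirror each other, so these values are not independent and cannot decide whether the arrays were paired. With 1 array left out, Parp14 minus Dtx3l ran from -0.64 to 0.76, Parp14 minus Parp9 from -0.11 to 0.72, Parp14 minus Parp12 from -0.18 to 0.97, Dtx3l minus Parp9 from -0.033 to 0.53 and Parp9 minus Parp12 from -0.088 to 0.25. With dimmer probe sets Parp14 minus Dtx3l ran from -0.33 to 0.79, and Parp14 minus Parp9 was 1.04, Parp14 minus Parp12 1.13, Dtx3l minus Parp9 0.63 and Dtx3l minus Parp12 0.73. The causes were not tested. The number of arrays limits the precision.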

Other observations

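The genes closest in profile to Parp12, chosen after their values were seen, were Nmi, a STAT-interacting protein gene, at a mean absolute difference of 0.148, Il12rb1, a receptor subunit gene, at 0.182, and the transcription factor gene Irf7 at 0.190. Nmi read 9.37 and 9.28 in co-culture, against 7.07, 6.74 and 5.47 in MSC alone.

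Other genes with a departure of replicate 3 of MSC alone below -1.5, also named after their values were seen, included Gbp3 (-3.01), Cxcl11 (-2.82), Zbp1 (-2.74) and Psmb8 (-2.45), all higher in co-culture. Kirrel3 (-1.71) and Deptor (-1.61) had such a departure and were lower in co-culture. The labels give no account of how replicate 3 differed, and whether its culture or its array set the departure cannot be told apart.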
